A study of Mus musculus with 9 samples.

Results

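The libraries described here are the 3 made from untreated wild-type mice, of 9 in the series. They hold nuclear RNA from the cortex of animals aged 7 to 9 months, from nuclei sorted for NeuN, the neuronal protein encoded by Rbfox3. The 3 were picked out by their titles, which give the genotype as wild type, no treatment, and replicates 1 to 3. The choice to describe these libraries was made with earlier results of these data known. The other 6 libraries come from tau-transgenic mice given a peptide, and they enter no value below. The labels give neither the number of animals behind a library nor whether animals were pooled, so the spread between libraries may be technical. The values describe levels across genes within these libraries, and no groups were compared.

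A nucleus holds RNA that is still being made, spliced or kept from export. Total RNA from nuclei therefore reads introns as well as exons, and it reads RNAs that stay in the nucleus, such as Malat1 of the nuclear speckles. Long neuronal genes for adhesion molecules, receptors and channels consist almost wholly of introns, so nascent RNA of these genes can fill much of such a library.

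The libraries held 21704644, 22019590 and 22254046 counts of read pairs, each assigned to a whole gene with its introns. Of 55401 genes, 27774 (50.1%) had a count in some library and 14653 had at least 10 counts in each. Those 14653 genes held 99.8% of the counts. 2 quantities are used. CPM is a gene's counts divided by the total of its library and multiplied by 1000000, which says how much of the library the gene took. The level per kb is CPM divided by the length of the gene in kb, and levels of different genes are compared on that scale. Ranks and sums in CPM say only how much of the library the genes took. 10 counts correspond to 0.449 to 0.461 CPM, and a count of 0 allows up to 0.138 CPM (3 counts, counting error only). Errors are SD over the 3 libraries (n = 3), and values given in a row of 3 are replicates 1, 2 and 3.

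The label of sorted cortical neurons was set against 3 marker genes. Rbfox3 (chr11:118489762-118911597, GRCm38) took 23942, 27988 and 24366 counts, with a level of 2.74 ± 0.24 CPM per kb. Slc17a7, the vesicular glutamate transporter of cortical excitatory neurons (chr7:45163949-45176142), was at 132, 98.6 and 118 CPM, or 9.55 ± 1.39 CPM per kb. Gad1, which makes GABA in inhibitory neurons (chr2:70553072-70602014), was at 73.9, 107 and 79.5 CPM, or 1.78 ± 0.36 CPM per kb. All 3 lay above the median of the 14653 genes, 0.598 CPM per kb. The level of Slc17a7 per kb was 7.18, 3.69 and 5.97 times that of Gad1. It was 4.48, 2.82 and 3.46 times that of Slc32a1, another gene of inhibitory neurons. Slc17a7 spans 12.2 kb and Gad1 48.9 kb, so introns enter their levels to different degrees. In CPM, Gad1 was above Slc17a7 in replicate 2. Replicate 2 had the lowest Slc17a7 and the highest Gad1 of the 3 libraries. In these bulk samples more cells of a type and more RNA per cell cannot be told apart.

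**Figure D1:**
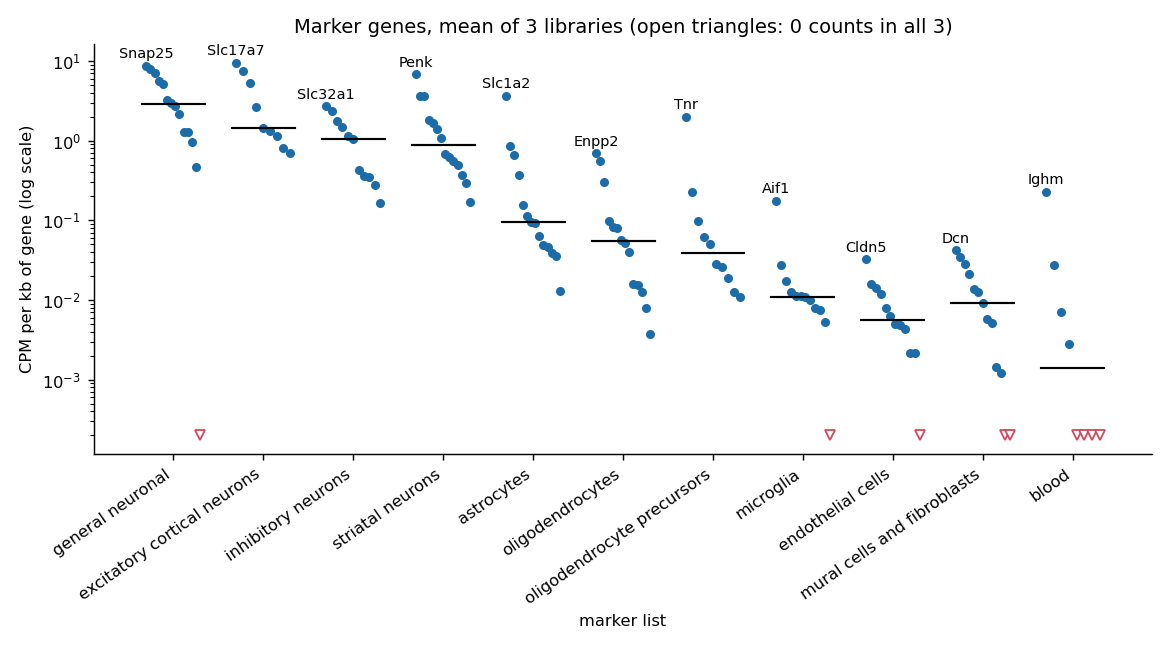
Level of each marker gene in CPM per kb of gene on a log axis, as the mean of 3 libraries, by marker list. Bars are medians over the list, labels name the highest gene shown of each list (1 microglia gene is not shown), and open triangles mark genes with 0 counts in all 3 libraries. Medians of the 4 neuronal lists plotted lie between 0.89 and 2.87, and those of the glial, vascular and blood lists lie below 0.1.

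Of 14 general neuronal genes, 13 had at least 10 counts in each library. Over all protein-coding genes 57.7% did, so such counts alone do not mark a cell type. The median of the neuronal list was 2.87 CPM per kb. The highest was Snap25, a SNARE protein of vesicle fusion, at 8.77 ± 0.52 CPM per kb, followed by the vesicle proteins Syp at 8.0 and Syt1 at 7.03 CPM per kb. The neurofilament genes were lower, with Nefl at 3.01, Nefh at 0.95 and Nefm at 0.46 CPM per kb. Tubb3, the neuronal tubulin, had 0 counts in all 3 libraries, and 100% of its span was covered by another gene of the same strand. Read pairs that touch 2 genes of 1 strand are not counted, so this 0 carries no information on Tubb3 RNA.

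Cortical excitatory genes were all read, 9 of 9, where 57.7% of all protein-coding genes reached the minimum. After Slc17a7 came Camk2a, a kinase of the postsynaptic density, at 7.50 ± 0.13 CPM per kb and Nrgn, a calmodulin-binding protein, at 5.31 ± 0.37 CPM per kb. The transcription factors Tbr1 (1.43 CPM per kb) and Neurod2 (0.70 CPM per kb) were lower. Of 19 layer genes, with a median length of 109 kb, 17 had at least 10 counts in each library. Over the annotation 85.0% of genes of 100 to 300 kb did. Upper-layer Cux2 stood at 0.91 ± 0.02, layer 4 Rorb at 0.95 ± 0.07 and deep-layer Tle4 at 1.05 ± 0.04 CPM per kb. The ranges of Cux2 and Rorb overlapped. Deep-layer Foxp2 and Bcl11b are also markers of striatum.

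All 11 genes of the inhibitory list reached 10 counts in each library, against 57.7% of all protein-coding genes. Slc32a1, the vesicular GABA transporter, was at 2.7 ± 0.24 CPM per kb. The Dlx transcription factors that specify these neurons were lower, from 0.16 (Dlx2) to 0.43 (Dlx6) CPM per kb. Among genes that mark interneuron subclasses, the peptide Sst was the highest at 9.92 ± 1.90 CPM per kb, with Cck at 2.44, Vip at 0.75, Npy at 0.44 and Pvalb at 0.23 CPM per kb. Sst spans 1.39 kb and Pvalb 15.3 kb, so introns enter the per-kb level of these genes to different degrees. Of the 8 inhibitory genes with a mean count of at least 50, replicate 2 was the highest for 7, and of the 9 excitatory genes it was the lowest for 7. Over all 11712 genes with that count, replicate 2 was highest for 30.8% and lowest for 42.3%. It was also the highest for 10 of the 12 striatal genes below with that count. Whether the inhibitory counts came from interneurons of the cortex or from striatal neurons was not tested.

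Genes that mark striatal projection neurons were read too, 14 of 14, against 57.7% of all protein-coding genes. Pde10a, a phosphodiesterase of these neurons, took 1384, 2069 and 1610 CPM, and the dopamine receptor genes Drd1 and Drd2 stood at 1.82 ± 0.41 and 0.55 ± 0.21 CPM per kb. Penk, the enkephalin precursor, was at 6.88 ± 1.35 CPM per kb. Among the 12 genes of this list with a mean count of at least 50, replicate 1 was the lowest for 12 and replicate 2 the highest for 10. Over all 11712 genes replicate 1 was lowest for 33.9%. All 6 measured genes of the subcortical glutamatergic list, among them Tcf7l2 (44.5, 57.0 and 72.1 CPM) and Slc17a6, were likewise lowest in replicate 1. Whether tissue next to the cortex was included in the dissection was not tested.

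Markers of other cell types were low per kb apart from a few genes. List medians were 0.094 (astrocytes), 0.054 (oligodendrocytes) and 0.039 CPM per kb (oligodendrocyte precursors). Of these lists 12 of 14, 9 of 14 and 2 of 10 genes reached 10 counts in each library, against 57.7% of all protein-coding genes. The astrocyte list summed to 525 ± 45.2 CPM, of which Slc1a2, the glial glutamate transporter, made up 92.6%; the other 13 genes summed to 38.7 ± 8.08 CPM. Gfap, the astrocyte filament, was at 0.97, 0.41 and 0.63 CPM, and Aqp4, the water channel, at 1.80, 0.82 and 1.53 CPM. The oligodendrocyte precursor list summed to 840 CPM with Tnr and to 22.2 ± 2.18 CPM without it. Pdgfra, which defines these precursors, was at 0.83, 0.59 and 0.31 CPM. Of the oligodendrocyte genes, Enpp2 (81.8, 81.2 and 73.8 CPM) and Mbp (61.5, 54.7 and 68.8 CPM) led, while Mog was at 0.14, 0.23 and 0.22 CPM.

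Of the 13 genes of the microglia list 3 reached the minimum, and the list median was 0.011 CPM per kb. Tmem119 had 0 counts in replicates 2 and 3. The endothelial list of 12 genes summed to 4.46 ± 0.44 CPM and the list of mural cells and fibroblasts to 5.33 ± 1.5 CPM. The 4 globin genes had 0 counts in all 3 libraries. Uty, a gene of the Y chromosome, was at 133, 135 and 132 CPM, and Xist, which is made from the inactive X chromosome, at 0, 0.05 and 0.22 CPM.

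Counts were spread over many genes with a small group far ahead. The 10 most counted genes held 8.89 ± 0.65% of the counts, the 100 most counted 29.2 ± 0.22% and the 1000 most counted 65.6 ± 0.46%. 405 genes held 50% of the counts and 4140 held 90%. The gene with the most counts was CT010467.1, a ribosomal RNA gene of 1849 bp (chr17:39846353-39848201), at 16228, 11232 and 30538 CPM. Malat1 (chr19:5795690-5802672) came next with 13646, 15218 and 12453 CPM, and the ranges of the 2 genes overlapped.

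**Figure D2:**
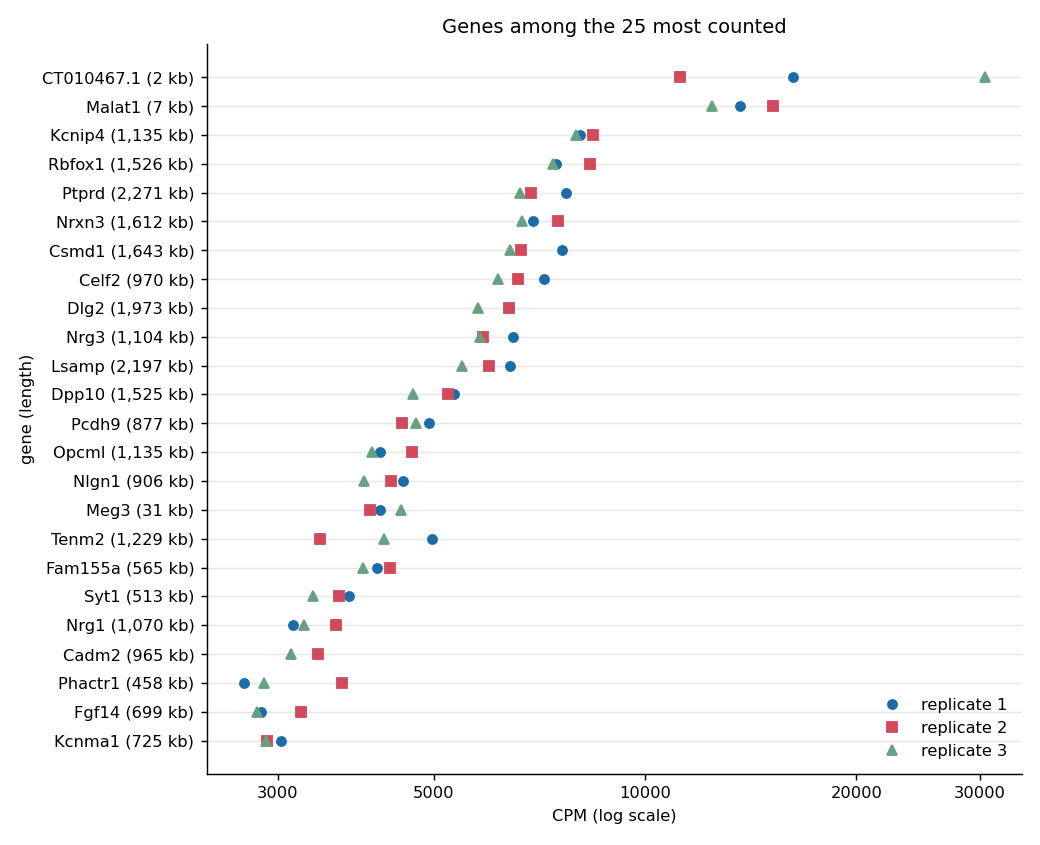
CPM on a log axis of genes among the 25 most counted in each of the 3 libraries, with gene length in kb beside the name. CT010467.1 has the widest spread, from 11232 to 30538 CPM, and 22 of the 25 most counted genes are longer than 100 kb.

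From the third place on, most of the 25 most counted genes were long and protein-coding. Kcnip4, which modulates A-type potassium channels, took 8085, 8445 and 7979 CPM over its 1135 kb. Rbfox1, a splicing regulator of the same family as NeuN, took 7462, 8353 and 7405 CPM over 1526 kb. The receptor phosphatase Ptprd took 7723, 6884 and 6632 CPM, the presynaptic adhesion molecule Nrxn3 6916, 7523 and 6689 CPM, and the complement-control protein Csmd1 7622, 6653 and 6431 CPM. The ranges of Ptprd, Nrxn3, Csmd1 and the splicing regulator Celf2 overlapped from one to the next, so their order does not hold beyond the spread. Of the 25, 22 were over 100 kb, 17 over 800 kb and 22 protein-coding; the exceptions to the last were CT010467.1, Malat1 and Meg3. Among the protein-coding genes of this group, Tenm2, a teneurin that binds latrophilins across the synapse, varied most relative to its mean, with 4967, 3439 and 4243 CPM.

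Long genes took most of each library. Genes over 100 kb made up 5.19% of the annotation and held 67.0, 68.2 and 64.7% of the counts. The 100 genes over 800 kb alone, 0.181% of the annotation, held 18.3 ± 0.76%. Genes up to 10 kb were most of the annotation and held 5.38 ± 0.96% (1 to 10 kb) and 0.297 ± 0.033% (up to 1 kb). A gene length of 223, 229 and 197 kb divided each library into 2 equal parts of counts, while the median length of the 14653 genes was 27.6 kb. Across these genes, CPM rose with length (Spearman 0.58, n = 14653), and the level per kb fell slightly (Spearman -0.14). Genes are not independent replicates, and length enters both axes, so these are descriptions.

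**Figure D3:**
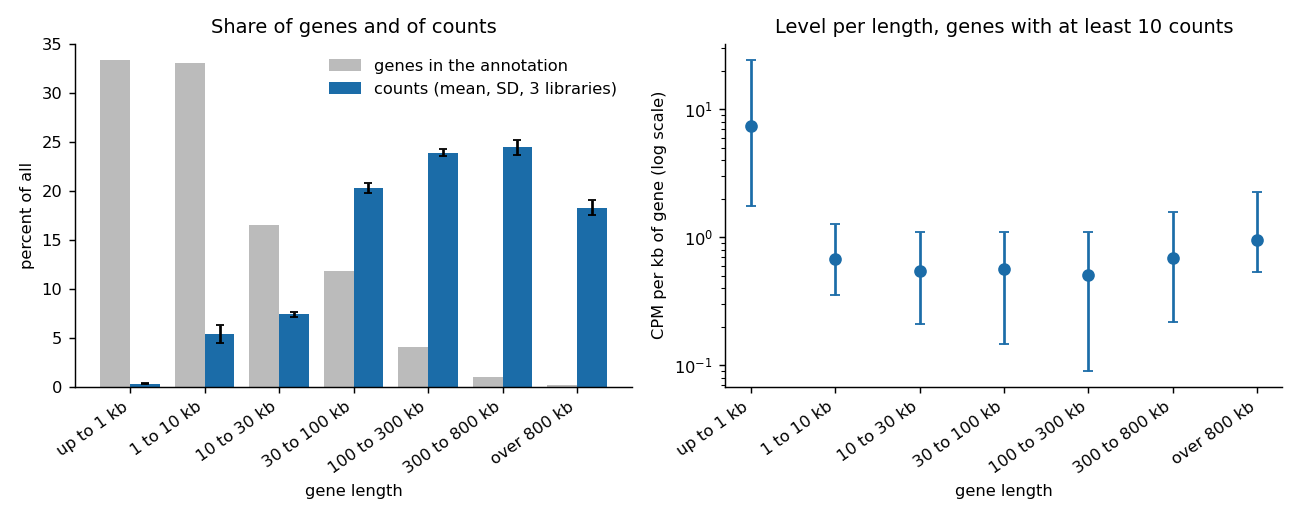
Left, percent of annotated genes and percent of counts (mean and SD of 3 libraries) by gene length. Right, median level in CPM per kb on a log axis with quartiles, for genes with at least 10 counts in each library. Genes over 100 kb are 5.19% of the genes and hold 66.6% of the counts, and the medians of genes at the minimum lie between 0.50 and 0.96 CPM per kb from 1 kb upward and at 7.40 up to 1 kb.

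The share of genes with at least 10 counts in each library rose from 1.08% of genes up to 1 kb to 48.3% at 10 to 30 kb and 97% over 800 kb. At equal level a longer gene gathers more counts, so this rise has a part that length alone gives. The median level per kb of genes that reached the minimum was 0.679 at 1 to 10 kb, 0.503 at 100 to 300 kb and 0.955 over 800 kb. The median level per kb of genes over 100 kb, divided by that of genes of 1 to 10 kb in the same library, was 0.80 as the mean of 3 libraries. With at least 50 counts asked for in each library that ratio was 0.56. A count minimum asks for a higher level per kb of a short gene than of a long one, so the medians of short genes depend on it. With no minimum the median was 0 for genes of 1 to 10 kb and 0.41 CPM per kb for genes over 100 kb. Within protein-coding genes whose model is the same in the reference, the exonic share of a gene had a Spearman correlation of 0.24 with its level per kb.

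The very long genes did not share a level. Of the 100 over 800 kb, 97 reached the minimum, with levels from 0.007 to 7.20 CPM per kb and a median of 0.955. Kcnip4 (7.20), Celf2 (6.86), Nrg3 (5.49), Pcdh9 (5.38) and Rbfox1 (5.07) were the highest. Among them Nrg3 encodes a neuregulin and Pcdh9 a protocadherin. Dmd, the dystrophin gene of 2257 kb, was at 0.58 ± 0.05, and Cntnap2, a contactin-associated protein of 2245 kb, at 1.2 ± 0.06 CPM per kb. At the low end 11 genes were below 0.1 CPM per kb. Ctnna3, an alpha-catenin of 1574 kb, had 28.4, 31.3 and 27.9 CPM. Fhit, a common fragile-site gene of 1612 kb, lay just above with 0.10 CPM per kb and 164, 177 and 153 CPM. The longest gene models of all, Gm20388 (4435 kb) and Fgfr2 (2961 kb), share 34.2 and 27.7% of their span with other genes of their strand, which removes counts from them.

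Per kb of gene the order was another one. Only 3 of the 25 highest genes of at least 1 kb were also among the 25 most counted, none was over 100 kb, and their median length was 6.98 kb. CT010467.1 came first with 10456 ± 5420, Malat1 next with 1972 ± 199, then the mitochondrial ribosomal RNA mt-Rnr2 with 352 ± 59.0 and the imprinted Meg3 with 138 ± 7.27 CPM per kb. Snhg11, a host gene of small nucleolar RNA typed as protein-coding in the reference, followed with 79.6 ± 5.43 CPM per kb. The first 7 genes each had a range per kb above that of the next, and the range of the eighth, Rian, overlapped that of Srsf5.

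Some genes of RNA processing were among the 25 highest per kb, with 1 SR, 2 hnRNP and 1 DEAD-box gene counted there. Rsrp1, an arginine- and serine-rich protein, was at 35 ± 2.21, the helicase Ddx5 at 30.3 ± 1.99, the splicing factor Srsf5 at 26.2 ± 1.42 and Srrm2, a scaffold of nuclear speckles, at 23.2 ± 0.57 CPM per kb. Hnrnpu (19.8), Sfpq (18.6) and Hnrnpa2b1 (16.8 CPM per kb), all binders of nuclear RNA, stood in the same range. The SR, hnRNP and DEAD-box families were listed after the values were seen, so their medians carry that choice. All 11 SR splicing factor genes reached the minimum, with a median of 4.75 CPM per kb, from Srsf12 at 0.55 to Srsf5 at 26.2. All 20 hnRNP genes did so with a median of 2.50, and 36 of 37 DEAD-box helicase genes with a median of 0.89. Over all protein-coding genes 57.7% reached the minimum. By length it was 16.9% of all genes of 1 to 10 kb and 48.3% of 10 to 30 kb. The median of all protein-coding genes that reached the minimum was 0.655 CPM per kb. The median gene length was 7.23 kb in the SR, 13.0 kb in the hnRNP and 21 kb in the DEAD-box family.

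Other genes high per kb had neuronal or general roles. Peg3, a paternally expressed zinc finger gene, was at 19.6 ± 1.17 and the ubiquitin ligase Rnf112 at 16.9 ± 0.21 CPM per kb. Chaperone genes were present as well, with Hsp90ab1 at 15.8, Calr at 14.4 and Hspa5 at 12.8 CPM per kb. Genes for ribosomal proteins, the respiratory chain and other general functions were read as well. Of 89 ribosomal protein genes 76 reached the minimum, with a median of 1.04 CPM per kb, and of 85 nuclear genes of the respiratory chain 76 did, with a median of 0.97. The minimum was reached by 57.7% of all protein-coding genes and by 16.9% of all genes of 1 to 10 kb. Actb was at 9.85 ± 1.75, Gapdh at 2.39 ± 0.10 and Eef1a1 at 1.90 ± 0.07 CPM per kb.

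All genes of the synaptic lists below reached the minimum. Over the annotation 57.7% of protein-coding genes did. By length it was 67.5% of genes of 30 to 100 kb, 85.0% of 100 to 300 kb, 96.3% of 300 to 800 kb and 97% over 800 kb. The median length was 64.1 kb in the presynaptic list, 349 kb in the glutamate receptor list, 376 kb in the channel list and 904 kb in the adhesion list. Of the genes that act at the presynaptic terminal all 19 reached the minimum, with a median of 2.53 CPM per kb; Sv2a, a vesicle glycoprotein, was highest at 6.13 and Unc13a, which primes vesicles, next at 5.39. All 32 adhesion genes did, with a median of 1.90 and a sum of 75144 ± 3658 CPM, which is 7.51% of all counts. Among the neurexins Nrxn3 was at 4.37 and Nrxn2 at 1.89 CPM per kb. Their partners the neuroligins ran from Nlgn3 at 0.40, whose span is 82.8% overlapped by other genes of the strand, to Nlgn1 at 4.73 CPM per kb.

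Of the postsynaptic receptors, all 24 glutamate receptor genes were read. Grin1, the obligatory NMDA subunit, was at 10.6 ± 0.24 and Gria2, the AMPA subunit that sets calcium permeability, at 9.52 ± 0.83 CPM per kb. Among NMDA subunits Grin2b stood at 5.57 ± 0.23 and Grin2a at 4.03 ± 0.25, and their ranges did not overlap, while Grin2c (0.27) and Grin2d (0.31 CPM per kb) were low. All 14 GABA receptor genes were read, from Gabrg1 at 0.30 to the metabotropic Gabbr1 at 6.04 CPM per kb. The scaffold list of 16 had a median of 2.07, with Shank1 at 4.55 and Dlg4, a scaffold of the postsynaptic density, at 2.13 CPM per kb. The 24 channel genes had a median of 2.88, from Kcnt2 at 0.93 to Kcnip4. The 20 neuronal RNA-binding proteins had a median of 2.15 CPM per kb.

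Non-coding RNA, counted as long non-coding and small RNA genes, made up 4.36, 4.52 and 4.28% of the counts. Protein-coding genes took 93.3 ± 0.90%, ribosomal RNA 1.94 ± 1.00% and mitochondrially encoded genes 0.112 ± 0.018%. Of 9911 long non-coding RNA genes 1556 reached 10 counts in each library, with a median of 0.166 against 0.655 CPM per kb for protein-coding genes. Malat1 alone held 32.9 ± 2.18% of long non-coding counts, and the 5 most counted genes of the class 53.9 ± 1.11%. Those 5 were Malat1, Meg3, Snhg14, Rian and Lncpint. Neat1, the paraspeckle RNA whose gene lies next to Malat1, had 74, 63 and 88 counts, or 0.16 ± 0.03 CPM per kb. Miat was at 14.8 ± 1.05, the microRNA host Mir124a-1hg at 19.7 ± 1.55 and the imprinted antisense RNA Kcnq1ot1 at 6.18 ± 0.30 CPM per kb.

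2 imprinted regions held much of the non-coding RNA. On the plus strand of chromosome 12, between 109541001 and 109749460, lie Meg3, Rian and Mirg, which are expressed from the maternal chromosome in mammals. Levels were 138 at Meg3, 27.3 ± 0.11 at Rian and 11.9 ± 0.12 CPM per kb at Mirg. Between Rian and Mirg, Gm37899 stood at 10.6 and B830012L14Rik at 7.60 CPM per kb. The non-coding genes of this stretch summed to 6453, 6314 and 6720 CPM, which was 14.5 ± 0.84% of non-coding counts with unverified gene models of the reference included. On the minus strand of chromosome 7, over 3007 kb from 59202391 to 62209479, 16 of 247 non-coding genes reached the minimum. Over the annotation 15.7% of long non-coding and 1.82% of small RNA genes did. The 210 small nucleolar RNA genes of this stretch, each over 90% covered by other genes of the strand, had 0 counts. There Snhg14, the long host transcript that runs antisense to Ube3a, took 1758, 1747 and 1688 CPM over 668 kb (2.59 ± 0.06 CPM per kb). Beyond it A230006K03Rik (2.12), A230057D06Rik (2.80) and A330076H08Rik (4.94 CPM per kb) were read on the same strand. This stretch held 8.28 ± 0.23% of non-coding counts.

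The chromosome 12 region carries 59 microRNA hairpin genes, small stem-loops cut from long primary transcripts by Drosha in the nucleus. 26 of them reached 10 counts in each library, of 36 such genes in the whole annotation. All 29 hairpins that lie inside another gene of the strand had 0 counts. Over the annotation 99.9% of microRNA genes overlapped in this way were at 0, against 82.6% of those with no overlap. Of the other 30 hairpins, 26 were read. Reads of 40 bases from a total RNA library do not show whether a hairpin was cut. The 4 of the region with at least 50 counts in every library were Mir433 (4.88, 5.95 and 5.53 CPM), Mir127 (4.38, 4.0 and 3.82 CPM), Mir539 (3.59, 4.27 and 3.37 CPM) and Mir1193 (4.01, 5.04 and 2.52 CPM). Their mature sequences from RefSeq (GRCm38.p6) are shown because these hairpins led the region, with the seed, bases 2 to 8, in capitals. No 2 of the 7 sequences share a seed.
mmu-miR-433-5p: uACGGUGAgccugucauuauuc
mmu-miR-433-3p: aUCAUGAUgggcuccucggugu
mmu-miR-127-5p: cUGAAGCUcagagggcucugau
mmu-miR-127-3p: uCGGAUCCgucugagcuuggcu
mmu-miR-539-5p: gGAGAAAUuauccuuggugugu
mmu-miR-1193-5p: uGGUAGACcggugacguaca
mmu-miR-1193-3p: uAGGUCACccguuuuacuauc

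Several of the 10 genes under 1 kb with the highest levels per kb were known small RNAs. Rn7sk, which holds the elongation factor P-TEFb inactive, took 510, 517 and 671 CPM (1710 ± 276 CPM per kb). The minor spliceosome RNAs Rnu11 (97.1, 119 and 85.7 CPM) and Rnu12 (48.7, 65.5 and 53.4 CPM) were at 751 and 370 CPM per kb. Just outside these 10, at rank 11, Bc1, a neuronal RNA of dendrites typed as long non-coding, was at 36.1, 46.1 and 60.2 CPM. Of 1507 small nucleolar RNA genes 7 reached the minimum; 702 of them lie within another gene of their strand, and all 702 had 0 counts, against 718 of the 804 (89.3%) with no overlap. Terc, the telomerase RNA, was at 0 with 93.9% of its span covered by other genes of the strand. Rmrp is annotated more than once at the same place and strand, and its entries, covered at 96.4% and 100%, were both at 0.

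The highest level per kb under 1 kb belonged to Gm23935, a gene of 57 bases typed as microRNA (chr16:11144125-11144181), at 689, 495 and 950 CPM. Gm24187 on chromosome 13 differs from it by 1 base, G11A, counted from the first base of Gm23935, and was at 33.9, 23.5 and 55.1 CPM. Gm24245 on chromosome 4 and Gm24270 on chromosome 9 have the same 57 bases as Gm23935. Their counts were 31, 31 and 90 for Gm24245 and 0, 0 and 0 for Gm24270. A read pair with 40 bases per end can reach past a gene of 57 bases, so these levels per kb are not comparable with those of longer genes. Gm24187 was among the 18 genes described below that kept close to the ratios of CT010467.1. Gm23935 lay outside them, at 1.39 times replicate 2 in replicate 1 and 1.92 times in replicate 3. The 2 sequences are shown because counts of near-identical copies cannot be assigned with certainty; the base in capitals is the difference.
Gm23935: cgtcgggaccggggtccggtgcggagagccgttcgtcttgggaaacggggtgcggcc
Gm24187: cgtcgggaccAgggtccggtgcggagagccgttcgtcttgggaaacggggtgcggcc

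Mitochondrially encoded RNA was mostly ribosomal: mt-Rnr1 and mt-Rnr2 held 94.3 ± 0.69% of it. Of the 13 protein genes, 7 were read in all 3 libraries, from mt-Nd4 at 2.85 ± 0.45 to mt-Co1, a subunit of cytochrome oxidase, at 13.0 ± 0.91 CPM per kb. The other 6 lie side by side and had at most 2 counts in any library. mt-Co2, mt-Atp8, mt-Atp6, mt-Co3 and mt-Nd4l had 0 counts in all 3, and mt-Nd3 had 0, 0 and 2. 5 of these 6, all but mt-Atp8, have a copy of 99.7 to 100% identity over 99 to 99.9% of their length in annotated genes of chromosome 1, between 24612407 and 24615565. For example, mt-Co2 matches Gm28661 at 100% over 681 bp. None of the 7 genes that were read has such a copy over more than 63.6% of its length. The 5 copies had 0 counts as well. The part of these copies in the low counts was not tested, and the values of the 6 genes are not read as levels.

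**Figure D4:**
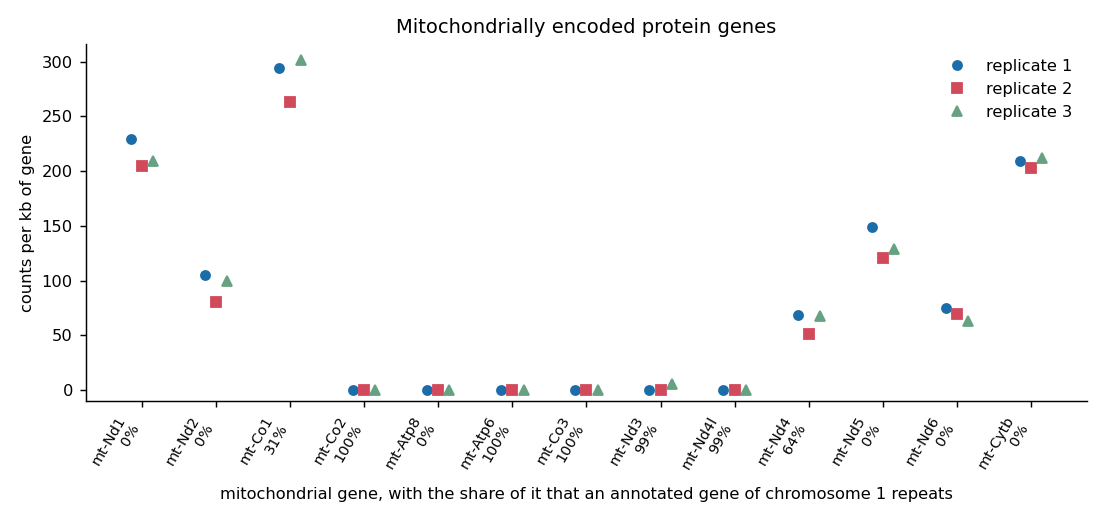
Counts per kb of gene for the 13 mitochondrially encoded protein genes in gene order, in each of the 3 libraries, with the percent of each gene that an annotated gene of chromosome 1 repeats under its name. The 6 genes from mt-Co2 to mt-Nd4l have at most 2 counts per library.

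Genes that overlap others on their strand were mostly at 0. Of 7000 genes with over 90% of their span covered by other genes of the strand, 6791 (97.0%) had 0 counts in all 3 libraries, against 46.8% of the 43677 genes with no overlap. Among protein-coding genes 600 of 779 (77.0%) were at 0, against 22.4% of those with no overlap. Of the 58 clustered protocadherin genes, which encode adhesion proteins of neuronal identity, 57 were at 0 and 58 were over 90% covered. Snurf, Peg13 and Itgam, each over 90% covered, were at 0 too. The zeros of covered genes are not read as absence of RNA.

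Genes of other organs were mostly at 0, with exceptions. Over the annotation 27627 of 55401 genes were at 0, and 4700 of 21884 protein-coding genes. The minimum was reached by 57.7% of protein-coding genes and by 16.9% of genes of 1 to 10 kb. Of 1107 olfactory receptor genes 909 had 0 counts in all 3 libraries and 4 reached the minimum. Of 328 vomeronasal receptor genes 227 had 0 counts and 8 reached the minimum. 4 neighbours on chromosome 10 stood out among these, Vmn2r84 (11.4, 11.9 and 11.7 CPM), Vmn2r85 (13.1, 14.6 and 14.4 CPM), Vmn2r86 (8.20, 7.67 and 8.85 CPM) and Vmn2r87 (17.8, 15.5 and 15.6 CPM). Olfr1564 was at 8.29, 9.72 and 8.54 CPM. Of 106 keratin genes 83 were at 0, and Krt222 was highest at 8.80, 7.22 and 8.85 CPM. Counts over whole genes do not tell a receptor's own transcript from RNA that runs through the gene. Of 374 zinc finger genes listed by symbol 311 reached the minimum, against 57.7% of all protein-coding genes. The median of the zinc finger list was 0.44 CPM per kb.

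The 3 libraries differed little for most genes. Among 11712 genes with a mean count of at least 50, the median ratio of the highest to the lowest CPM was 1.16, and 215 genes (1.84%) differed by more than 2-fold. That number was 1054 at a mean count of at least 10 and 73 at 200, and 53 to 131 with 1 replicate left out. The median coefficient of variation was 7.63%, against 4.83% from counting alone. Cacna1c, a calcium channel subunit, was at 1856, 1864 and 1854 CPM and Rian at 1586, 1574 and 1576 CPM. These genes were among those with the smallest spread. Spearman correlations between libraries lay between 0.990 and 0.994. Counts differed by more than counting noise between every pair of libraries (mean chi-square per gene 13.9, 15.3 and 27.0), so no 2 libraries held the same data. A few genes with very high counts raise these means, so they are not values of a typical gene. Over the 3 libraries the chi-square was 229446 for CT010467.1 and 25528 for the next gene, Cmss1.

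**Figure D5:**
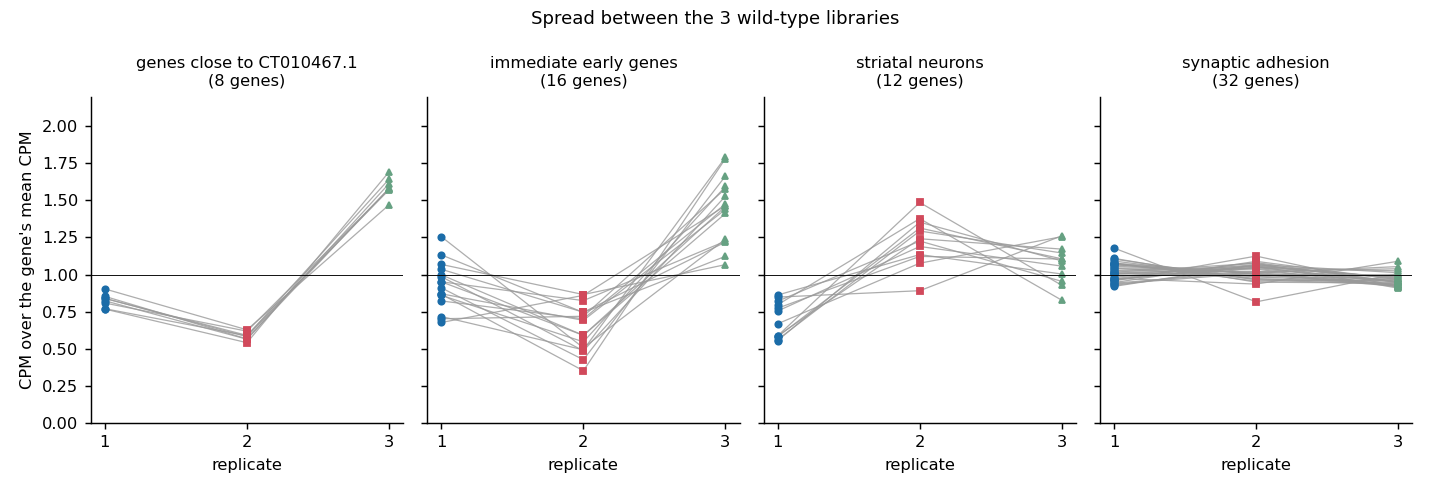
CPM of each gene divided by its mean over the 3 libraries, for CT010467.1 and 7 genes with close ratios, 16 immediate early genes, 12 striatal genes and 32 synaptic adhesion genes, all with a mean count of at least 50. Grey lines join the values of 1 gene and show no order of the replicates. Replicate 3 is highest in the first panel and for 13 of the 16 immediate early genes, while adhesion genes are lowest in replicate 3 for 20 of 32.

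Replicate 3 had the most ribosomal RNA, and a few other genes followed it closely. The CPM of CT010467.1 was 1.44 times that of replicate 2 in replicate 1 and 2.72 times in replicate 3. 18 of the 11712 genes, itself included, had both ratios within 20% of these, a window set after the values were seen. Cmss1, a protein of small ribosomal subunit biogenesis, had 1857, 1306 and 3482 CPM, the Mediator kinase Cdk8 1068, 817 and 2083 CPM, and the mitochondrial leucyl-tRNA synthetase Lars2 594, 407 and 1164 CPM. Il31ra, a cytokine receptor subunit, had 344, 262 and 734 CPM. The 17 genes other than CT010467.1 held 0.509% of the counts. Whether ribosomal RNA reads were placed in these genes was not tested.

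Mir6236, a microRNA gene on chromosome 9 with 53.4, 37.6 and 118 CPM, was among these 18 genes. Its mature sequence (RefSeq, seed in capitals) is shown because the gene ranked with small nuclear RNAs per kb, at 566 ± 345.
mmu-miR-6236: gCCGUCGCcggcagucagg

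Immediate early genes, which neurons switch on within minutes of activity, were mostly highest in replicate 3 and lowest in replicate 2. Arc, a postsynaptic protein, was at 15.3, 10.5 and 38.3 CPM, Fos at 2.58, 1.04 and 5.30 CPM and Nr4a3, a nuclear receptor, at 25, 11.7 and 45.7 CPM. Of the 16 with a mean count of at least 50, replicate 3 was highest for 13 and replicate 2 lowest for 14. Over all 11712 genes these shares were 40.9% and 42.3%. Npas4 (11.8, 15 and 25.5 CPM) and Egr1 (10.8, 11 and 24.3 CPM), both activity-induced transcription factors, were lowest in replicate 1 instead. Of the 32 synaptic adhesion genes, replicate 3 was lowest for 20 and highest for 3, where 23.8% and 40.9% of all genes were. Egr3, Fosl2 and Btg2 were among the 18 genes that kept to the ratios of CT010467.1. The part of ribosomal RNA content in this order was not tested.

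The genes with the highest ratios between libraries had low levels, with exceptions. Of genes with a mean count of 50 to 200, 3.94% differed by more than 2-fold, against 0.45% at 1000 to 5000. Slc6a3, the dopamine transporter, was at 5.53, 0 and 3.55 CPM; AC174471.1, a long non-coding RNA of 464 kb, at 0.23, 18.8 and 0.31 CPM; and Bub1b, a mitotic checkpoint kinase, at 2.30, 0.09 and 6.61 CPM. In replicate 2 Prdm16, a transcription factor, reached 21 CPM against 3.73 and 3.24, Drd3 8.99 CPM against 1.89 and 2.29, and Abi3bp 72.0 CPM against 17 and 19. Cfap54, a protein of cilia, was at 141, 278 and 59.6 CPM. Of the 215 genes over 2-fold, replicate 3 was the highest for 63, replicate 1 for 50 and replicate 2 for the rest.

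Promoters were read from RefSeq windows of 250 bases before to 50 after the start (GRCm38.p6), matched to 16746 genes by symbol and by a start within 500 bp. A window was counted as CpG-rich with over 50% G and C and an observed-to-expected CpG ratio over 0.6. Of 8697 matched protein-coding genes that reached the minimum, 71.9% were CpG-rich, against 8.84% of 2364 with 0 counts and 45.6% of all matched genes. With these genes ordered by level per kb and cut into 4 equal groups, the share was 53.4% in the lowest group and 80.2% in the highest. It was 71.0% for genes of 1 to 10 kb and 58.3% for the 48 matched genes over 800 kb. None of 339 olfactory and vomeronasal receptor genes was CpG-rich. These shares are descriptions, since genes are not replicates.

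The 100 bases before the start are shown for 3 genes the results turn on, with CG in capitals. The window of Malat1 (chr19:5802673-5802772, minus strand) and that of Slc17a7 (chr7:45163821-45163920, plus strand) hold 6 CG each and are not CpG-rich over their 300 bases. The window of Meg3 (chr12:109540896-109540995, plus strand) holds 4 and is CpG-rich over its 300 bases.
Malat1: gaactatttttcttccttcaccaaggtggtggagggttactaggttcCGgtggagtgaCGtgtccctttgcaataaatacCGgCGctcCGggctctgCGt
Slc17a7: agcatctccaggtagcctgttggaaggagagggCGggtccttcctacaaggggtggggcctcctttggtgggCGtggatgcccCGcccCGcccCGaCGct
Meg3: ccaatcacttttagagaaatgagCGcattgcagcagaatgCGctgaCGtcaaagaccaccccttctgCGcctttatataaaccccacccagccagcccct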

How the data were processed

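Gene counts of 3 wild-type libraries were used. The files deposited hold raw counts, in whole read pairs for each gene, made with featureCounts 2.0.0 over whole genes of Ensembl release 102 (GRCm38) with strand setting 2, per the file headers; pairs that overlap several genes of a strand are left out. The submitters' processing notes also name STAR 2.7.9a and DESeq2 1.36.0, without a role. RNA came from a kit for fixed tissue and libraries from a stranded total RNA kit, per the labels' protocols. From the counts, CPM and CPM per kb of gene length were computed in Python 3.11.15 (pandas 2.3.3), with TMM factors from edgeR 4.0.16 as an alternative. Gene types and symbols came from GENCODE M21, matched for 99.5% of genes, and sequences from RefSeq. Copies of mitochondrial genes were sought with BLAST+ 2.17.0. No groups were compared and no test was run. The counting of genes that differ more than 2-fold was tried on simulated counts with known changes, and the other steps were not. Named genes are the 25 highest by CPM and by level per kb (10 below 1 kb), the 15 most counted non-coding, longest and most variable genes, and members of 40 lists. Others (the 18 genes close to CT010467.1, 5 added lists, the receptor and mitochondrial examples) were chosen after their values were seen. Some genes that these rules name are not reported here. Libraries, lists and measures were chosen with earlier results of these data known. Alternatives were other count minimums, TMM, leaving out ribosomal and mitochondrial RNA or overlapped genes, other gene types, and leaving out each replicate. Read pairs carry no molecular identifiers in the sources used here, so limits cover counting error only.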

Additional observations from a re-analysis of the deposited data

How the results depend on the processing

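No paired analysis was possible because the report compares no groups and runs no test. The 100 most counted genes held 28.0% of the counts without ribosomal and mitochondrial RNA, against 29.2%. Genes over 100 kb held 48.5% among genes with no overlap on their strand, against 66.6%. The ratio of the median level per kb of long to short genes, 0.80, was 0.56 at 50 counts and 0.74 without overlapped genes; without a minimum it has no value, since the median of short genes is 0. Alternatives chosen after seeing the data were RefSeq gene types, which put 4.02% of counts in non-coding genes against 4.39%, and the marker sums without their leading gene: 38.7 CPM for astrocytes without Slc1a2 and 22.2 CPM for oligodendrocyte precursors without Tnr. The 215 genes with more than a 2-fold difference became 1054 at a mean count of 10, 73 at 200 and 207 with TMM. With each replicate left out in turn, also chosen after seeing the data for counts of genes, they numbered 53 (without replicate 2) to 131 (without replicate 3), and 100 without replicate 1; fewer libraries leave fewer chances of a difference. Other results without a replicate ranged from 65.9 to 67.6% for genes over 100 kb, 4.32 to 4.44% for non-coding RNA, 0.77 to 0.83 for the ratio and 14896 to 14933 genes read. The cause of these changes was not tested. At 10 counts a level is known to the nearest few counts, which limits statements on genes below about 0.46 CPM.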
